A study of Mus musculus with 27 samples.

Results

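Immediate early genes are genes that cells transcribe within minutes of a stimulus, before any new protein has to be made. Here 9 genes of this class were chosen by symbol from the 9996 genes of an RNA-sequencing table: Fos, Fosb, Jun, Junb, Egr1, Ier2, Atf3, Dusp1 and Zfp36, all of which were present. They are described here in 27 libraries of macrophages and neutrophils sorted by flow cytometry from mouse mammary tumours. The tumours arose in K14cre;Cdh1F/F;Trp53F/F mice, in which the K14 promoter drives Cre in epithelium and the floxed genes encode E-cadherin and p53; every group, controls included, carried these alleles. Mice received cisplatin, a drug that crosslinks DNA, together with anti-CSF-1R (the combination), cisplatin with a control antibody, anti-CSF-1R alone, or control antibody alone. CSF-1R is the receptor through which CSF-1 and IL-34 keep most tissue macrophages alive, so macrophages of the anti-CSF-1R and combination groups are those still present under the antibody. Macrophages gave 2 combination, 4 cisplatin, 2 anti-CSF-1R and 4 control libraries, and neutrophils gave 4 combination, 3 cisplatin, 4 anti-CSF-1R and 4 control libraries. Tumours were taken 1 day after the last of 2 cisplatin injections, or at a size of 100 mm2 in mice without cisplatin, so a comparison of groups with and without the drug is one of endpoints too. Neither the age of the mice nor any pooling of mice is given in the sources used here.

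Signals from growth factors, cytokines, microbial products and stress reach these genes mainly through the MAP kinases ERK, JNK and p38, which act on the serum response factor with its ELK partners and on CREB and ATF factors already bound at the promoters. The products then act in turn: some switch on later genes, and others shut the signal down again. In macrophages and neutrophils the class accompanies activation, and enzymatic dissociation and sorting of tissue are also known to induce it. Fos and Fosb encode proteins that bind DNA as AP-1 only when paired with a Jun protein, and Jun and Junb encode such partners. Egr1 encodes a zinc finger transcription factor, Atf3 a stress-induced factor of the ATF family that restrains inflammatory genes in mouse macrophages, and Ier2 a small nuclear protein. Dusp1 and Zfp36 do not encode transcription factors. Dusp1 makes a phosphatase that inactivates p38 and JNK, and Zfp36 makes tristetraprolin, which binds AU-rich messenger RNAs such as that of Tnf and speeds their decay.

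In the GENCODE annotation of build GRCm38, Fos lay on chromosome 12 at 85473890 to 85477273, Fosb on chromosome 7 at 19302696 to 19310051, Jun on chromosome 4 at 95049034 to 95052222 and Junb on chromosome 8 at 84974484 to 84978718. Ier2 lay on chromosome 8 at 84661331 to 84662852, Atf3 on chromosome 1 at 191170296 to 191218039, Dusp1 on chromosome 17 at 26505590 to 26562128 and Zfp36 on chromosome 7 at 28376784 to 28380253. Jun and Zfp36 overlapped antisense genes (Junos and Gm44710), and the spans of Junb, Atf3 and Dusp1 overlapped Prdx2, Gm24748 and Ergic1 among others. The sources used here do not say whether the authors' counting used strand, so reads of these 5 genes could include some of their partners.

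Of the 9 genes, 7 had a promoter in the RefSeq table of build GRCm38.p6; Egr1 and Ier2 did not match. The 250 bases before each RefSeq start were searched on both strands for TGACG (the core of the CREB and ATF site), TGACGTCA (the full site, which contains TGACG on each strand), TGANTCA (the AP-1 site), TATAAA and the CArG box of the serum response factor. TGACG was found in 5 of 7 members (Fos, Fosb, Junb, Atf3 and Dusp1), against 17.8% of 32841 promoters. TGACGTCA was in Dusp1 alone of the 7 and in 1.55% of all promoters, TATAAA in Fos alone and in 7.59%, the CArG box in Zfp36 alone and in 1.47%, and TGANTCA in 0 of 7 and in 6.75%. The stretch from 200 to 51 bases before the start is shown 5′ to 3′ for Dusp1 (chr17:26508523-26508672, minus strand), Fos (chr12:85473690-85473839, plus strand) and Junb (chr8:84978799-84978948, minus strand), because these 3 genes varied together in both cell types and share the motif; capitals mark TGACG and TGACGTCA.
Dusp1: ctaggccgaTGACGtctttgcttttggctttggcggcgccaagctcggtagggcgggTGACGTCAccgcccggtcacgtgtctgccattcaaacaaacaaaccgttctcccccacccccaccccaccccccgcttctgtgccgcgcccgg
Fos: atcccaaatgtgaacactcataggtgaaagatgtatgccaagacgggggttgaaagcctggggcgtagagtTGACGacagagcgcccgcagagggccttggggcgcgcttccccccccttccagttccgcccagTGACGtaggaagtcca
Junb: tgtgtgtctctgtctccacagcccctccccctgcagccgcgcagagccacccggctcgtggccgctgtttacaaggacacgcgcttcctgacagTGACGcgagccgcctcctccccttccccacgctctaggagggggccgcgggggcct
In Fos the copies began 129 and 66 bases before the start and in Junb the copy began 106 bases before it. In Dusp1 a first copy began 191 bases before the start and the full site occupied bases 143 to 136. These matches describe the letters in the windows and were not tested as binding sites. The 3 genes shown were picked for both the motif and their correlation. Zfp36, without TGACG, correlated with Dusp1 at 0.82 in macrophages and 0.87 in neutrophils. Atf3, with TGACG, correlated with Dusp1 at 0.82 in macrophages and 0.06 in neutrophils. A link of the motif to expression was not tested.

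The values given are read counts as normalised by the authors; many had lost their decimal point, which was recovered from the requirement of whole reads. They are not divided by gene length, so a level is compared only with levels of the same gene. Over the 9 genes 242 of 243 values could be placed; the value of Egr1 in cisplatin macrophage replicate 1 was left out. Members were represented by 15 to 11241 reads in a library, and decoded depth was 1297441 to 7500428 reads in macrophage and 999912 to 3283193 in neutrophil libraries. Each library's sorted identity was visible in markers: the summed level of 13 macrophage markers was 18111 to 36912 in macrophage and 2694 to 5839 in neutrophil libraries, and that of 14 neutrophil markers was 208 to 1684 in macrophage and 27752 to 114180 in neutrophil libraries. Neutrophil combination replicate 2 and cisplatin replicate 2 had the highest neutrophil marker sums (114180 and 107790), and anti-CSF-1R macrophage replicate 2 had a sum of 9302 for 9 mast cell and basophil markers, against 9.08 to 79.8 in the other macrophage libraries. In bulk RNA of sorted cells, fewer cells that express a gene and less of its RNA per cell cannot be told apart.

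**Figure D1:**
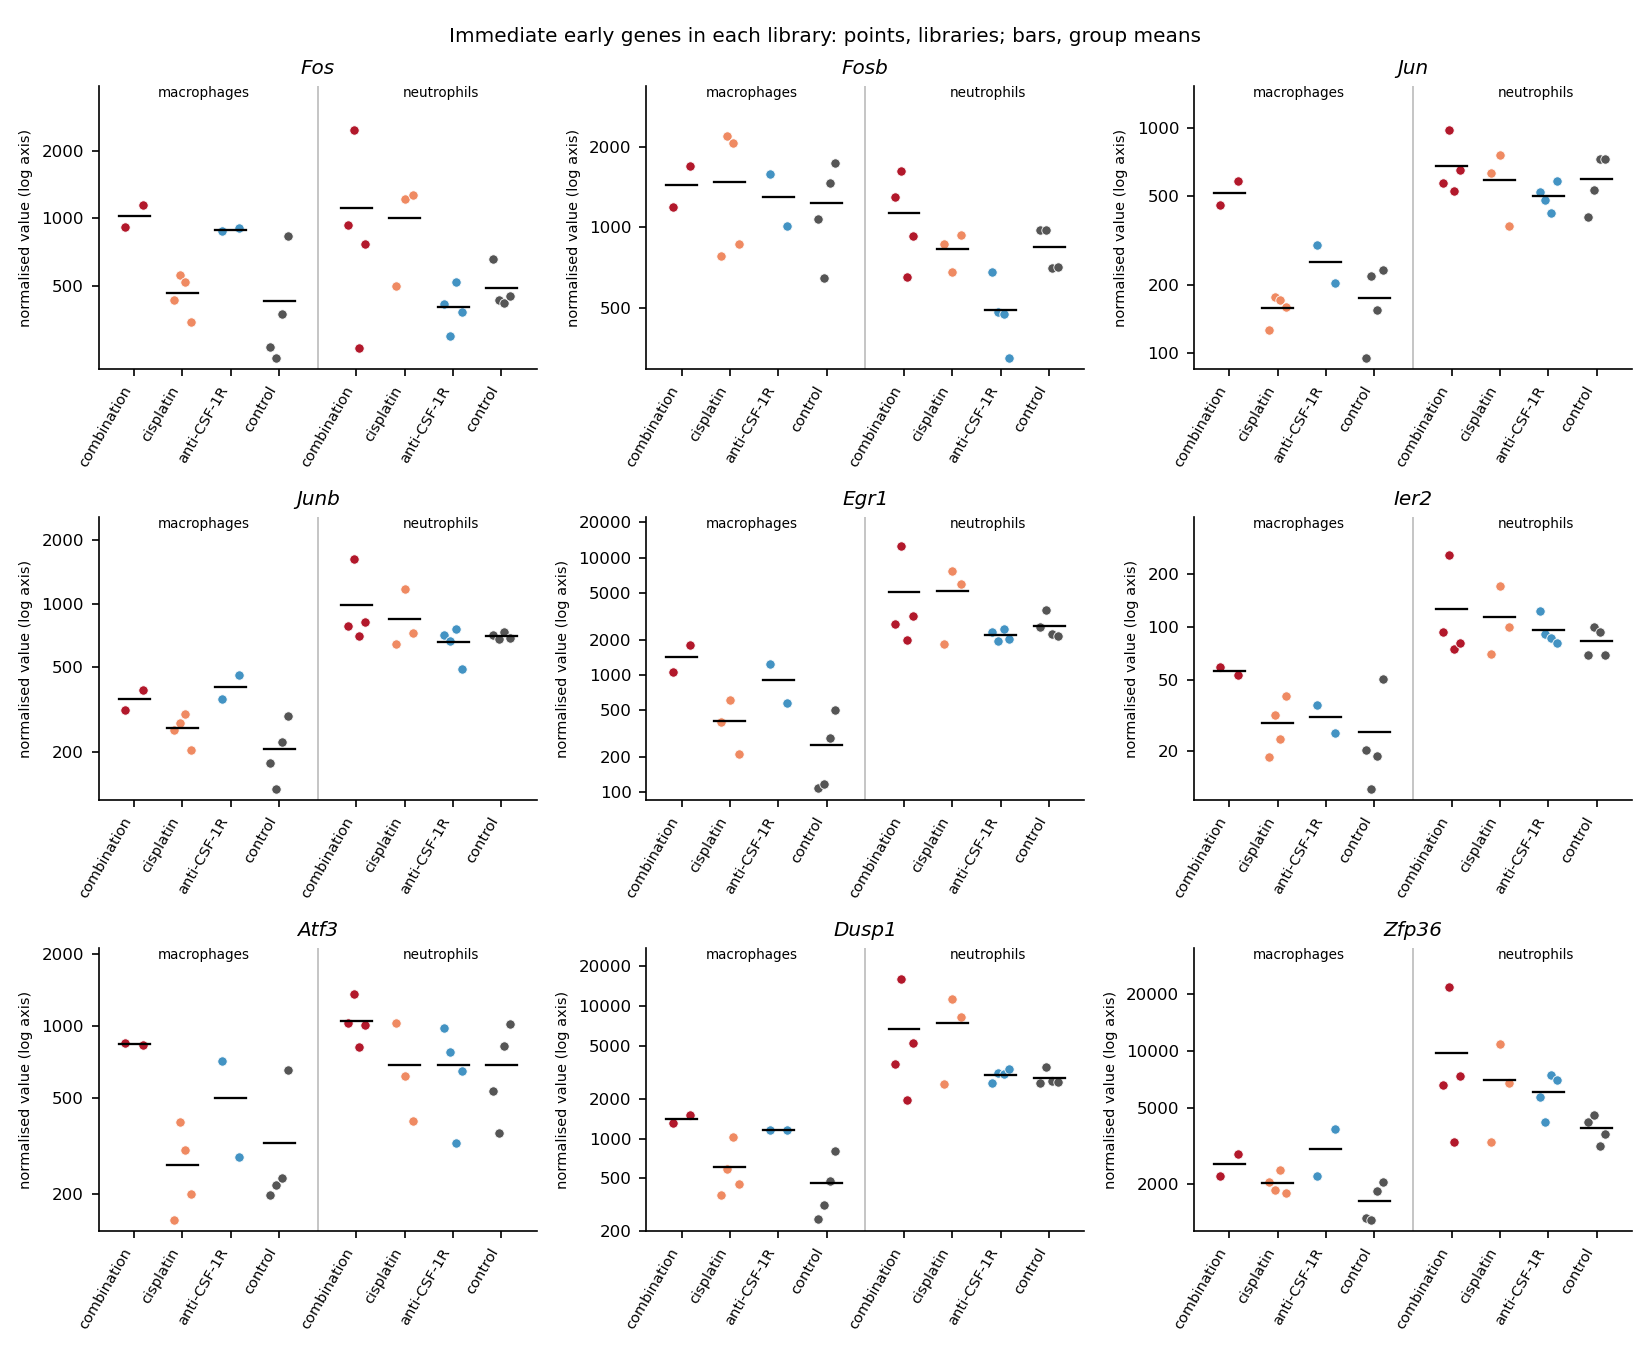
Normalised value (log axis) of each immediate early gene in every library, by cell type and treatment; points are libraries and bars are group means. In macrophages both combination libraries lay above every control library for each gene but Fosb, and in neutrophils the combination libraries spread widely, with Egr1 between 1971 and 12472.

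Each gene was measured in all 8 groups. Fos had its highest mean in neutrophils of the combination (1109.6 ± 950.1, SD, n = 4) and its lowest in neutrophils of anti-CSF-1R (404 ± 90.3, n = 4). In the order of its means the only neighbours without overlapping values were anti-CSF-1R macrophages (889.8 ± 14.9, n = 2) and control neutrophils (491 ± 114, n = 4). Fosb was the only member whose 4 highest means were those of the macrophage groups, led by cisplatin macrophages (1475 ± 757, n = 4) and ending with anti-CSF-1R neutrophils (490.3 ± 146, n = 4), and all neighbours in its order overlapped. For Junb, Egr1, Ier2, Dusp1 and Zfp36 the 4 neutrophil groups had the 4 highest means. The step between the highest macrophage group and the lowest neutrophil group had no overlap for Junb (406 ± 74.3 in anti-CSF-1R macrophages, n = 2; 656 ± 116 in anti-CSF-1R neutrophils, n = 4), Egr1 (1429 ± 531 in combination macrophages, n = 2; 2192 ± 240.0 in anti-CSF-1R neutrophils, n = 4), Ier2 (56.4 ± 4.40 in combination macrophages, n = 2; 83.5 ± 16.3 in control neutrophils, n = 4) and Dusp1 (1415 ± 142 in combination macrophages, n = 2; 2871 ± 396 in control neutrophils, n = 4), but did overlap for Zfp36. In Jun and Atf3 combination macrophages lay among the neutrophil groups. Jun averaged 516 ± 89.8 there (n = 2), next to 499 ± 69.3 in anti-CSF-1R neutrophils (n = 4), and Atf3 averaged 844 ± 8.97 (n = 2), next to 686 ± 295 in control neutrophils (n = 4).

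Combination against control macrophages showed the clearest change. Jun, Egr1 and Dusp1 rose, and 8 of the 9 genes lay higher in both combination libraries than in any of the 4 control libraries. Each comparison was tested on log2(value + 1) with limma across all genes, and a gene was called when its Benjamini-Hochberg adjusted p was under 0.05. The 3 called members compare with 1.76% of the 9107 genes tested called higher, and the 8 without overlap with 15.1% of all genes without overlap and higher. The labels do not say whether the libraries of a group came from different mice. The p-values therefore measure how these samples differed, and that spread may be technical.

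Among the AP-1 subunits, Jun measured 452 and 579 in combination macrophages, against 94.8, 219.8, 155 and 232 in control macrophages. Both combination values were well above the highest control. Jun rose by 1.62 ± 0.32 on the log2 scale (SE, adjusted p = 0.012). Fos measured 911 and 1145 in combination macrophages, against 268, 238, 375 and 830.3 in control macrophages. Control replicate 4 lay close to the combination libraries and the other 3 controls lay far below. The log2 difference of Fos was 1.44 ± 0.39 (adjusted p = 0.0503), just short of the threshold, which it passed with a pseudocount of 8 (0.0491), with upper quartiles set equal (0.0458) and with array weights (0.00534). Junb measured 315 and 393 in combination macrophages, against 177, 134, 222 and 296 in control macrophages, with a log2 difference of 0.82 ± 0.29 (adjusted p = 0.123). Its groups did not overlap, but the gap was narrow. Fosb measured 1187 and 1693 in combination macrophages, against 1070.1, 647, 1465 and 1733 in control macrophages, and its groups overlapped.

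Egr1, the zinc finger factor, measured 1053 and 1804 in combination macrophages, against 109, 118, 289.9 and 503 in control macrophages. The lower combination library was still above the highest control. Egr1 rose by 2.72 ± 0.57 on the log2 scale (adjusted p = 0.0184). Atf3 measured 850.4 and 838 in combination macrophages, against 197, 217, 231 and 655 in control macrophages, with a log2 difference of 1.57 ± 0.48 (adjusted p = 0.0847). Again control replicate 4 stood above the other 3. Ier2 measured 59.5 and 53.3 in combination macrophages, against 20.1, 12.2, 18.6 and 50.8 in control macrophages, with a log2 difference of 1.31 ± 0.45 (adjusted p = 0.117). Its control replicate 4 nearly reached the combination libraries.

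Of the genes whose products shut signals down, Dusp1 measured 1315 and 1516 in combination macrophages, against 245, 313, 477 and 806 in control macrophages. The groups were well apart. Dusp1 rose by 1.77 ± 0.42 on the log2 scale (adjusted p = 0.0319), but the call was lost with no filter on low values (adjusted p = 0.0614), with decimal points recovered without using the treatment groups (0.0605) and without control replicate 1 or 2 (0.072 and 0.077). Zfp36 measured 2210.3 and 2871 in combination macrophages, against 1319.7, 1294, 1834 and 2037 in control macrophages, with a log2 difference of 0.66 ± 0.28 (adjusted p = 0.216). Its lower combination library was just above the highest control.

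The median log2 difference of the 9 genes was 1.44, beside -0.01 over all genes tested. The count of 3 rested on both combination libraries, since 0 members were called without either one, and it became 7 without control replicate 4 (all but Fosb and Zfp36). That control library held the highest macrophage control value of all 9 genes. It also had the highest mean level of heat shock genes among the 12 macrophage libraries, 0.93 above the cell type's mean on the log2 scale, against -0.05 and 0.04 in the combination libraries; the part of sample handling in these values was not tested. Neutrophil markers overlapped between these groups, with control replicate 3 above both combination libraries. The sum of 14 of them was 1531 and 1619 in combination macrophages, against 592, 415, 1684 and 468 in control macrophages. In combination macrophages 13 and 12 of the 14 were above the listed minimum of 1, against 9, 10, 14 and 9 in control macrophages. Averaged over the 9 genes, the log2 deviation from the cell type's mean was 0.73 and 1.03 in combination macrophages. In control replicates 1 to 4 it was -0.94, -0.96, -0.39 and 0.38. Eosinophil markers (4 measured) summed to 29.9 and 215 in combination and 5.75 to 19.9 in control macrophages. Endothelial markers (2 measured) summed to 165 and 99.5 in combination and 26.6 to 95.0 in control macrophages. T and NK cell markers (2 measured) summed to 74.4 and 66.8 in combination and 151 to 239 in control macrophages. Of these 2, Cd3d was at the listed minimum in every control library, so the control sums reflected 1 gene. The sums of mast cell, B cell, dendritic cell, epithelial and fibroblast markers overlapped between these groups. The part of RNA from other cells in the difference was not tested.

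**Figure D2:**
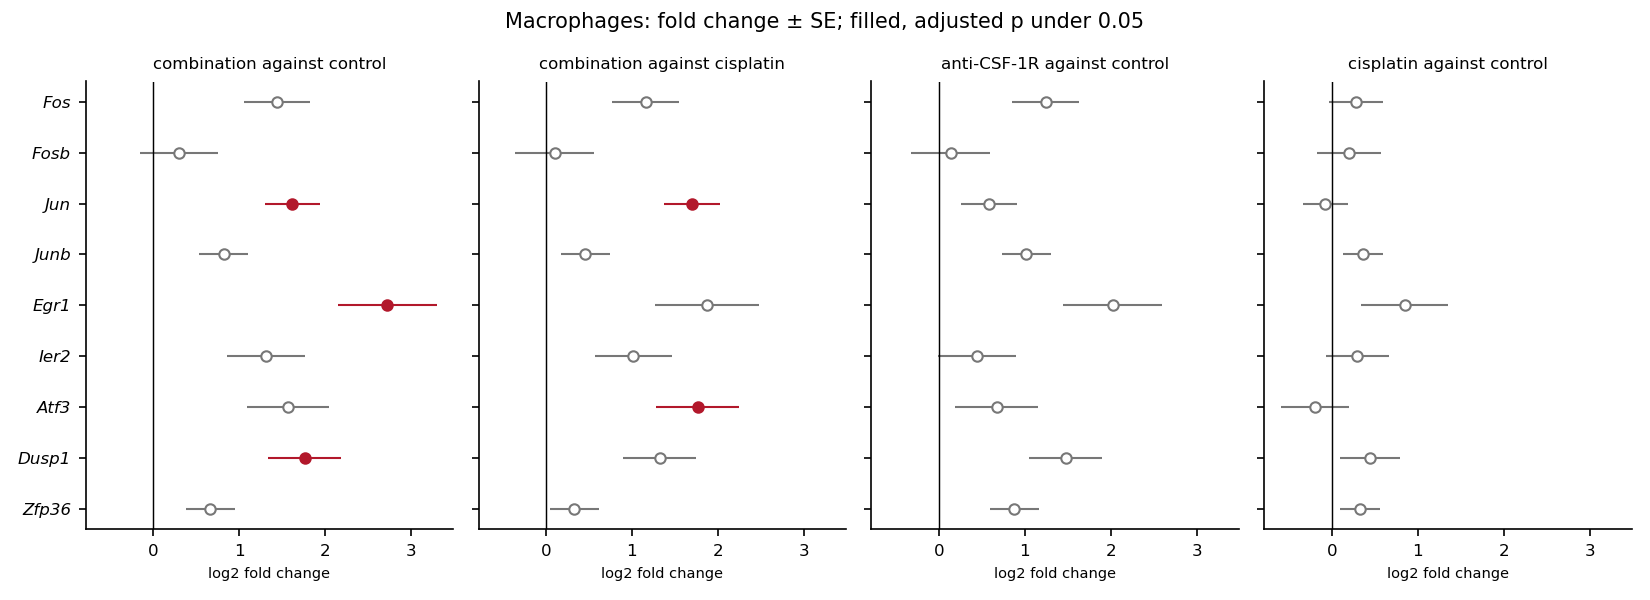
Log2 fold change of each immediate early gene in macrophages with its standard error, for combination against control, combination against cisplatin, anti-CSF-1R against control and cisplatin against control; filled points passed an adjusted p of 0.05. Egr1 had the largest change in combination against control macrophages, 2.72, and no gene was called in the 2 right-hand comparisons.

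Combination against cisplatin macrophages asks what anti-CSF-1R added at a shared endpoint. Jun and Atf3 rose, and 7 genes were higher without overlap, all but Fosb and Zfp36. The 2 called members compare with 2.11% of 9107 genes called higher, and the 7 with 17.6% without overlap and higher. Jun measured 452 and 579 in combination macrophages, against 126, 177, 171 and 159 in cisplatin macrophages. The cisplatin values were tight and far below, and Jun rose by 1.70 ± 0.32 on the log2 scale (adjusted p = 0.0106). Atf3 measured 850.4 and 838 in combination macrophages, against 155, 398, 305 and 199 in cisplatin macrophages. Its groups were also well apart, and Atf3 rose by 1.77 ± 0.48, but its adjusted p of 0.049996 was at the threshold and 5 other ways of processing took it to between 0.0518 and 0.0869.

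Egr1 measured 1053 and 1804 in combination macrophages, against 401, 613 and 214 in the 3 cisplatin macrophage libraries with a placed value, a log2 difference of 1.88 ± 0.61 (adjusted p = 0.0939). Dusp1 measured 1315 and 1516 in combination macrophages, against 371, 590.1, 1019 and 452 in cisplatin macrophages, a difference of 1.32 ± 0.42 (adjusted p = 0.09). Fos measured 911 and 1145 in combination macrophages, against 433, 557, 522 and 345 in cisplatin macrophages, a difference of 1.16 ± 0.39 (adjusted p = 0.0993). These 3 genes were apart between the groups without passing. Ier2 measured 59.5 and 53.3 in combination macrophages, against 18.5, 31.8, 23.2 and 40.5 in cisplatin macrophages, a difference of 1.02 ± 0.45 (adjusted p = 0.205). Junb measured 315 and 393 in combination macrophages, against 253, 275, 300.0 and 204 in cisplatin macrophages, and did not reach an unadjusted p of 0.05. The members' median was 1.16, beside -0.01 over all genes. The count of 2 became 0 without either combination library and 1 without cisplatin replicate 1 or 4. Without cisplatin replicate 3 Atf3 was not called (adjusted p = 0.0692) and Dusp1 was (0.0434). Neutrophil markers summed to 1531 and 1619 in combination and 208 to 447 in cisplatin macrophages, and eosinophil markers to 29.9 and 215 in combination and 5.66 to 8.94 in cisplatin macrophages. Endothelial markers summed to 165 and 99.5 in combination and 6.40 to 55.6 in cisplatin macrophages. Mast cell and basophil markers (9 measured) summed to 17.2 and 12.8 in combination and 9.08 to 11.7 in cisplatin macrophages. Each of the 9 is listed at 1 or more, so these sums lay near the lowest possible. Above that minimum were 3 and 4 of them in combination and 1 to 3 in cisplatin macrophages. The eosinophil sums of cisplatin macrophages were near their lowest possible too. The part of these markers' cells was not tested.

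Anti-CSF-1R alone was set against control in macrophages at a shared endpoint. Limma called 0 members, against 4.67% of 9115 genes called in either direction (187 higher and 239 lower, or 142 and 322 with upper quartiles set equal, which moved the median of all genes from 0.03 to -0.10), and limma-voom also called 0. At an unadjusted p under 0.05, 5 members were higher, against 11.5% of all genes, and the same number were higher without overlap, against 16.5%. Dusp1 measured 1159 and 1151 in anti-CSF-1R macrophages, against 245, 313, 477 and 806 in control macrophages, a log2 difference of 1.48 ± 0.42 (adjusted p = 0.0604). Egr1 measured 1238 and 579.8 in anti-CSF-1R macrophages, against 109, 118, 289.9 and 503 in control macrophages, a difference of 2.02 ± 0.57 (adjusted p = 0.0612). Both genes were apart between the groups. Junb measured 353 and 458 in anti-CSF-1R macrophages, against 177, 134, 222 and 296 in control macrophages, a difference of 1.02 ± 0.29 (adjusted p = 0.0571). Fos measured 879 and 900.4 in anti-CSF-1R macrophages, against 268, 238, 375 and 830.3 in control macrophages, a difference of 1.24 ± 0.39 (adjusted p = 0.0788). Zfp36 measured 2187 and 3906 in anti-CSF-1R macrophages, against 1319.7, 1294, 1834 and 2037 in control macrophages, a difference of 0.88 ± 0.28 (adjusted p = 0.0878). The anti-CSF-1R libraries lay above all controls in these 3 genes too. Without control replicate 4 the 5 genes passed, with adjusted p between 0.00402 and 0.0443, and without anti-CSF-1R replicate 1 Zfp36 passed (0.0364).

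Atf3 measured 719 and 285 in anti-CSF-1R macrophages and Jun 302 and 205, so the 2 libraries differed, and each gene overlapped the controls. Ier2 at 36.4 and 25.3 and Fosb at 1583 and 1013 overlapped them as well. Anti-CSF-1R macrophage replicate 2, the library with the mast cell markers, was the lower of the pair for Egr1, Atf3, Jun, Ier2 and Fosb and the higher for Junb and Zfp36, while Fos and Dusp1 differed little. Neutrophil markers summed to 1108 and 1551 in anti-CSF-1R macrophages, against 415 to 1684 in control macrophages. Of 14 measured, 11 and 12 were above the listed minimum in anti-CSF-1R and 9 to 14 in control macrophages. Some other marker sums did not overlap. Eosinophil markers (4 measured) summed to 105 and 66.2 in anti-CSF-1R and 5.75 to 19.9 in control macrophages, endothelial markers (2 measured) to 104 and 130.5 in anti-CSF-1R and 26.6 to 95.0 in control macrophages, and dendritic cell markers (4 measured) to 28.8 or more in anti-CSF-1R and 4.37 to 26.7 in control macrophages. T and NK cell markers (2 measured) were lower, at 138 and 112 in anti-CSF-1R macrophages, against 151 to 239 in control macrophages. Of these 2, Cd3d was at the listed minimum in every control library, so the control sums reflected 1 gene. The part of these other cells in the values was not tested.

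Cisplatin against control macrophages, which differ in endpoint too, gave 0 called members, against 0.511% of 9206 genes called, and 0 members at an unadjusted p under 0.05, against 10.6%; limma-voom also called 0. Dusp1, for example, measured 371, 590.1, 1019 and 452 in cisplatin macrophages, against 245, 313, 477 and 806 in control macrophages, and Jun 126, 177, 171 and 159 in cisplatin macrophages, against 94.8, 219.8, 155 and 232 in control macrophages. The groups overlapped for all 9 genes.

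Combination against anti-CSF-1R macrophages, with 2 libraries each and different endpoints, gave 0 called members and 0.0% of 9021 genes called by limma, and 0 members by limma-voom. Jun was the only member with an unadjusted p under 0.05, against 9.87% of all genes: it measured 452 and 579 in combination macrophages, against 302 and 205 in anti-CSF-1R macrophages, a log2 difference of 1.04 ± 0.37 (adjusted p = 0.397). Higher values without overlap were found for 5 members, against 21.6% of all genes. The interaction of cisplatin and anti-CSF-1R in macrophages (the combination's difference from anti-CSF-1R minus that of cisplatin from control) was 1.11 for Jun (adjusted p = 0.49). Of the members 0 were called by either tool, against 0.0111% of 9021 genes, and 1 had an unadjusted p under 0.05, against 9.23%. Atf3 at 850.4 and 838 in combination and 719 and 285 in anti-CSF-1R macrophages, and Ier2 at 59.5 and 53.3 in combination and 36.4 and 25.3 in anti-CSF-1R macrophages, were apart without reaching that p.

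In neutrophils no treatment changed any of the 9 genes at the threshold, and libraries of the same group could differ widely. Combination against control called 0 members, against 1.76% of 9124 genes called. Cisplatin against control called 0, against 0.121% of 9121, and anti-CSF-1R against control 0, against 0.121% of 9125. Combination against cisplatin called 0, against 0.351% of 9119, and combination against anti-CSF-1R 0, against 0.0767% of 9123. Limma-voom called 0 in each as well. At an unadjusted p under 0.05 the members numbered 1, 1, 1, 0 and 2 in these comparisons, against 16.9%, 9.1%, 10.3%, 10.6% and 11.4% of all genes.

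Fosb was the member with the smallest p. It measured 1303, 1625, 653 and 925 in combination neutrophils, 868, 679 and 935 in cisplatin neutrophils, and 680.1, 481, 476 and 324 in anti-CSF-1R neutrophils, against 977, 979, 703 and 712 in control neutrophils. Every anti-CSF-1R library lay below every control, and Fosb was the 1 member without overlap there, against 4.87% of genes lower without overlap. The log2 difference of anti-CSF-1R from control was -0.81 ± 0.28 (adjusted p = 0.302), and that of the combination from anti-CSF-1R was 1.16 ± 0.28 (adjusted p = 0.171). Its interaction of cisplatin and anti-CSF-1R was 1.19 (adjusted p = 0.579); 0 members were called there by either tool, against 0.0% of 9118 genes, and Fosb was the 1 member with an unadjusted p under 0.05, against 6.79%.

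Zfp36 measured 6669.6, 21769.9, 3327 and 7421 in combination neutrophils, 3331, 10985 and 6849 in cisplatin neutrophils, and 5729.6, 4234, 7539 and 7042 in anti-CSF-1R neutrophils, against 4245, 4629.7, 3182 and 3669 in control neutrophils. Combination replicate 2 stood far above all other libraries, and replicate 3 was within the controls. The log2 difference of combination from control was 0.99 ± 0.44 (adjusted p = 0.262). It was 0.49 without combination replicate 2 and cisplatin replicate 2, the libraries with the high neutrophil marker sums. Combination replicate 2 was also the highest for Zfp36, so leaving it out had to lower the difference. Dusp1 measured 3679, 15896, 1957 and 5226 in combination neutrophils, 2586, 11279 and 8284 in cisplatin neutrophils, and 2604, 3124, 3073 and 3343 in anti-CSF-1R neutrophils, against 2607, 3460.4, 2729 and 2689 in control neutrophils. Cisplatin replicates 2 and 3 and combination replicate 2 were high, and the anti-CSF-1R and control libraries were close together. The log2 difference of cisplatin from control was 1.13 ± 0.52 (adjusted p = 0.532), and 0.70 without the same libraries. Cisplatin replicate 2 was the highest of its group for Dusp1, so this fall followed from the choice of libraries.

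Egr1 measured 2719, 12472, 1971 and 3151 in combination neutrophils, 1826, 7658 and 5981 in cisplatin neutrophils, and 2336, 1939, 2449 and 2043 in anti-CSF-1R neutrophils, against 2571, 3552, 2252 and 2158 in control neutrophils. The pattern was that of Dusp1, with the same high libraries. Fos measured 933, 2469, 265 and 772 in combination neutrophils, 500.5, 1222 and 1275 in cisplatin neutrophils, and 416, 299, 518 and 384 in anti-CSF-1R neutrophils, against 661, 433, 420.0 and 449 in control neutrophils. Its log2 difference of combination from anti-CSF-1R was 1.06 (adjusted p = 0.376). Without combination replicate 2 and cisplatin replicate 2 it was 0.54. Combination replicate 2 was the highest for Fos too, so a fall had to follow. Junb ranged from 704 to 1613 in combination, 643 to 1175 in cisplatin and 492 to 761 in anti-CSF-1R neutrophils, against 680.0 to 738 in control neutrophils. Jun ranged from 524 to 976 in combination, 368 to 758 in cisplatin and 417 to 581 in anti-CSF-1R neutrophils, against 403 to 726 in control neutrophils. Ier2 (69.4 to 258 over the 15 libraries) and Atf3 (327 to 1359.5) overlapped between all groups.

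Macrophages were set against neutrophils of the same treatment. Members called lower in macrophages numbered 7 in control, 3 in anti-CSF-1R, 7 in cisplatin and 3 in combination tumours. In control tumours 7 of 9 genes were lower in macrophages, against 24.9% of 9903 genes called lower, and 6 did not overlap, against 23.9% of genes lower without overlap. Dusp1 measured 245, 313, 477 and 806 in control macrophages, against 2607, 3460.4, 2729 and 2689 in control neutrophils, a log2 difference of -2.78 ± 0.46 (adjusted p = 2.03e-05). Egr1 measured 109, 118, 289.9 and 503 in control macrophages, against 2571, 3552, 2252 and 2158 in control neutrophils, a difference of -3.63 ± 0.51 (adjusted p = 2.17e-06). These genes were widely apart. Junb (-1.82), Jun (-1.80), Ier2 (-1.85), Zfp36 (-1.29) and Atf3 (-1.16) were also lower in control macrophages, with adjusted p between 1.79e-06 and 0.0181. Of these, Atf3 overlapped between the cell types, and its call ended when macrophage replicate 1 or 2 or neutrophil replicate 3 or 4 was left out (adjusted p = 0.0556 to 0.0733). Fos and Fosb were not called in control tumours. Fos measured 268, 238, 375 and 830.3 in control macrophages, against 661, 433, 420.0 and 449 in control neutrophils, and Fosb 1070.1, 647, 1465 and 1733 in control macrophages, against 977, 979, 703 and 712 in control neutrophils.

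In cisplatin tumours the same 7 genes were lower in macrophages, against 27.8% of 9898 genes called lower, and 7 did not overlap, against 28.2%. Dusp1 differed by -3.46 ± 0.50 (adjusted p = 2.39e-06), Egr1 by -3.54 ± 0.59 (adjusted p = 1.82e-05) and Atf3 by -1.36 (adjusted p = 0.00976). Fos differed by -1.01 (adjusted p = 0.0664). Without neutrophil cisplatin replicate 1 Atf3 was no longer called (-1.01, adjusted p = 0.0782), while Fos was (-1.45, adjusted p = 0.019). In combination tumours 3 genes were lower in macrophages, against 24.2% of 9801 genes, and 5 did not overlap, against 30.8%. These were Junb by -1.39 (adjusted p = 0.000733), Dusp1 by -1.81 (adjusted p = 0.0105) and Zfp36 by -1.62 (adjusted p = 0.00688). Egr1, at 1053 and 1804 in combination macrophages against 2719, 12472, 1971 and 3151 in combination neutrophils, differed by -1.47 (adjusted p = 0.0536). Jun and Atf3 overlapped between the cell types there and had no unadjusted p under 0.05. Dusp1 lost its call without either macrophage library (adjusted p = 0.0801 and 0.0506), and Zfp36 without macrophage replicate 1 (0.0801).

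In anti-CSF-1R tumours the direction was mixed. Fosb was higher in macrophages, at 1583 and 1013, against 680.1, 481, 476 and 324 in neutrophils, a log2 difference of 1.42 ± 0.42 (adjusted p = 0.00784), against 22.0% of 9811 genes called higher. Both macrophage libraries were above every neutrophil library, as they were for Fos, which differed by 1.16 (adjusted p = 0.0765); the 2 genes without overlap compare with 31.2% of all genes. Jun by -0.99 (adjusted p = 0.0184), Ier2 by -1.61 (adjusted p = 0.00592) and Dusp1 by -1.39 (adjusted p = 0.0477) were lower, against 21.6% of genes called lower, and 6 members were lower without overlap, against 28.1%. Without macrophage replicate 1 Fosb was not called (adjusted p = 0.124), without replicate 2 Jun and Ier2 were not (0.212 and 0.0824), and leaving out any 1 of the 6 libraries ended the call of Dusp1 (0.0536 to 0.156).

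The deposited scaling left the median gene at 0.13, 0.10, 0.13 and 0.12 in these comparisons for control, anti-CSF-1R, cisplatin and combination tumours. With upper quartiles set equal the medians were 0.30, 0.21, 0.42 and 0.38. The members' median was -1.80 in control, -0.99 in anti-CSF-1R, -1.68 in cisplatin and -0.96 in combination tumours as deposited, below the median gene in each. The scaling also moved the calls over all genes, which were 2906 higher and 2753 lower in cisplatin tumours as deposited and 3746 and 2207 with upper quartiles equal, and 2245 and 2376 in combination tumours as deposited and 2999 and 1941 with them. Every fold change of a member printed here kept its sign under both other scalings. Quantile normalisation ended the calls of Atf3 and Zfp36 in control and cisplatin tumours, of Jun and Dusp1 in anti-CSF-1R tumours, and of Junb, Dusp1 and Zfp36 in combination tumours (adjusted p = 0.135 to 0.585).

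**Figure D3:**
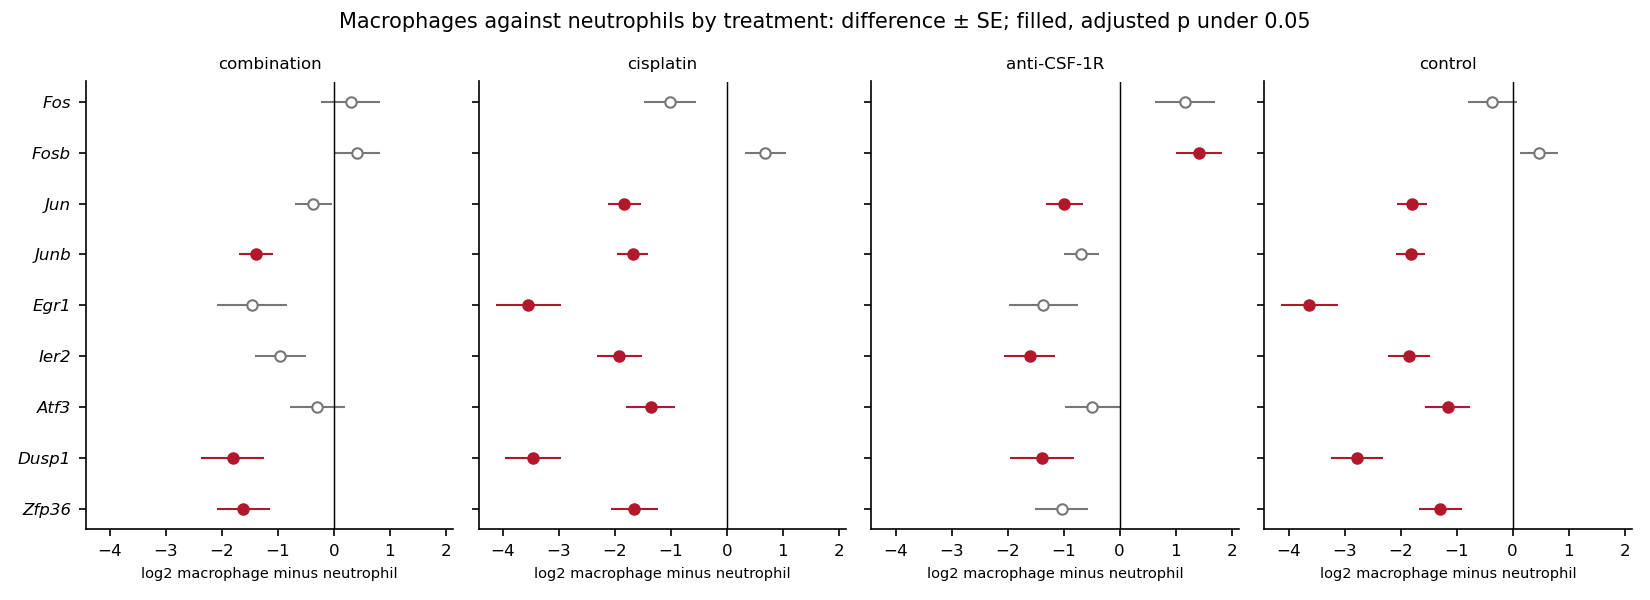
Log2 difference of each immediate early gene between macrophages and neutrophils with its standard error, for each treatment; filled points passed an adjusted p of 0.05. Dusp1 was lower in macrophages under all 4 treatments, while Fosb was higher in anti-CSF-1R tumours by 1.42.

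Whether a treatment changed a gene differently in the 2 cell types was tested as a difference of differences over all 8 groups. Limma and limma-voom called 0 members for the combination (against 0.0816% of 9801 genes), for cisplatin (against 0.172% of 9898) and for anti-CSF-1R (against 0.316% of 9811), each set against control. The members with an unadjusted p under 0.05 numbered 2, 0 and 3, against 8.93%, 8.0% and 10.3% of all genes. They were 2.16 for Egr1 (adjusted p = 0.348) and 1.43 for Jun (adjusted p = 0.218) under the combination, and 2.26 for Egr1 (adjusted p = 0.279), 1.52 for Fos (adjusted p = 0.439) and 1.14 for Junb (adjusted p = 0.274) under anti-CSF-1R. Jun under the combination was called with quantile normalisation (1.93, adjusted p = 0.0285). At the deposited scaling no difference in response between the cell types was shown for any member.

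The 9 genes varied together to different degrees. Across the 12 macrophage libraries the Pearson correlation of log2 values was 0.97 for Egr1 with Dusp1 (11 libraries), 0.94 for Egr1 with Fos (11 libraries), 0.93 for Fos with Junb and 0.26 for Fosb with Jun. Across the 15 neutrophil libraries it was 0.96 for Egr1 with Dusp1, 0.9 for Fos with Dusp1, 0.8 for Junb with Dusp1 and -0.01 for Egr1 with Atf3. Atf3, which correlated with Jun at 0.69, thus varied apart from Egr1 and Dusp1 in neutrophils, while in macrophages it correlated with Egr1 at 0.87. These correlations are descriptions over libraries that share treatment groups and depth.

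**Figure D4:**
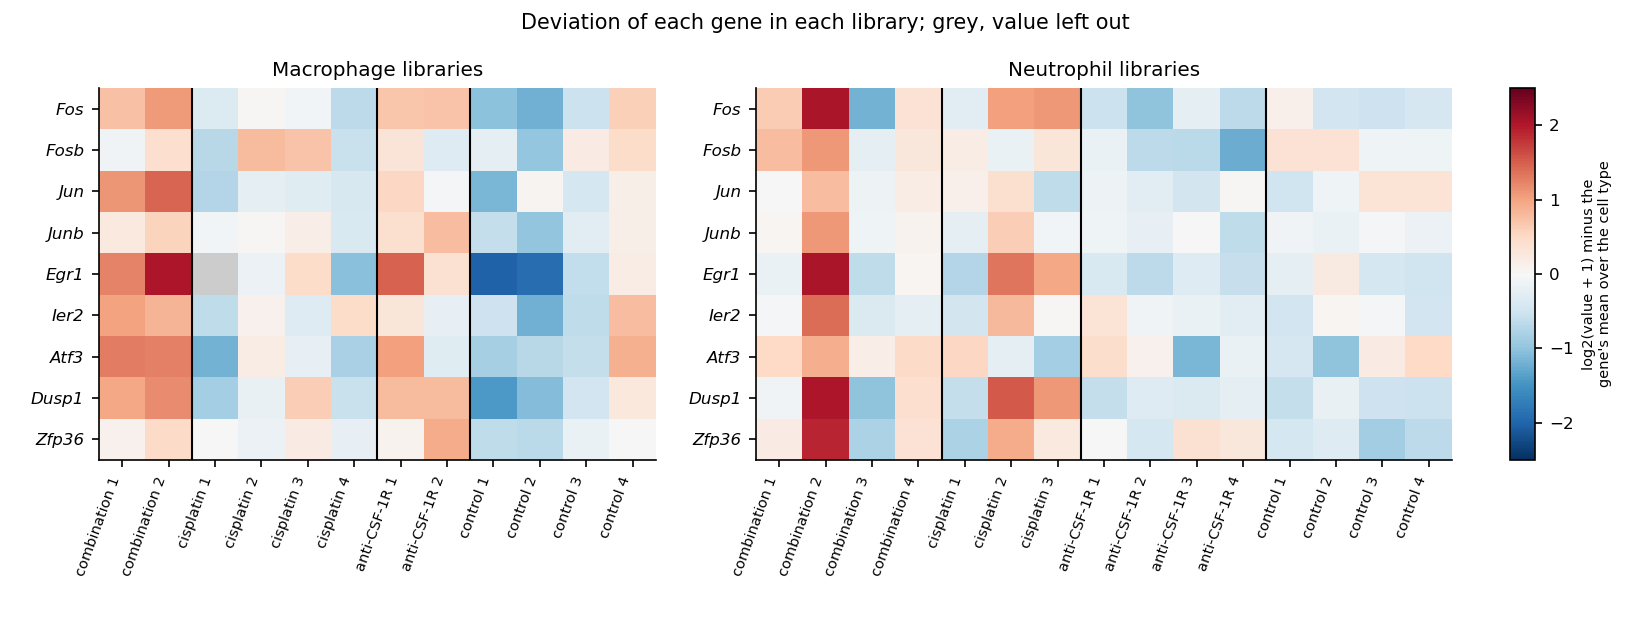
Deviation of log2(value + 1) of each immediate early gene from its own mean over the cell type, in each macrophage and neutrophil library (colour; grey marks the value left out). Neutrophil combination replicate 2 was above the mean for 9 of 9 genes, and macrophage control replicate 1 for 0.

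Averaged over the 9 genes, the deviation was 0.73 and 1.03 in combination macrophages, -0.56, 0.05, 0.14 and -0.46 in cisplatin macrophages, 0.63 and 0.30 in anti-CSF-1R macrophages, and -0.94, -0.96, -0.39 and 0.38 in control macrophages. The combination libraries were the highest, and control replicate 4 was nearer to the anti-CSF-1R libraries than to the other controls. In neutrophils it was 0.20, 1.47, -0.47 and 0.22 in the combination, -0.25, 0.69 and 0.24 under cisplatin, -0.13, -0.39, -0.33 and -0.38 under anti-CSF-1R, and -0.25, -0.18, -0.22 and -0.22 in controls. All 8 libraries without cisplatin were below the mean and 5 of 7 with cisplatin were above it. That mean includes the high values 1.47 and 0.69 of replicate 2 in the combination and cisplatin groups. Groups with and without cisplatin differ in endpoint too, and no member was called between them in neutrophils. Neutrophil combination replicate 2 exceeded the median of the other 3 combination libraries 4.59 times for Egr1, 4.32 times for Dusp1 and 3.26 times for Zfp36, but 1.35 times for Atf3. In that library heat shock genes were 0.50 below and neutrophil markers 0.96 above the cell type's mean, and in cisplatin replicate 2 they were 0.30 below and 1.05 above; their part in the values was not tested.

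**Figure D5:**
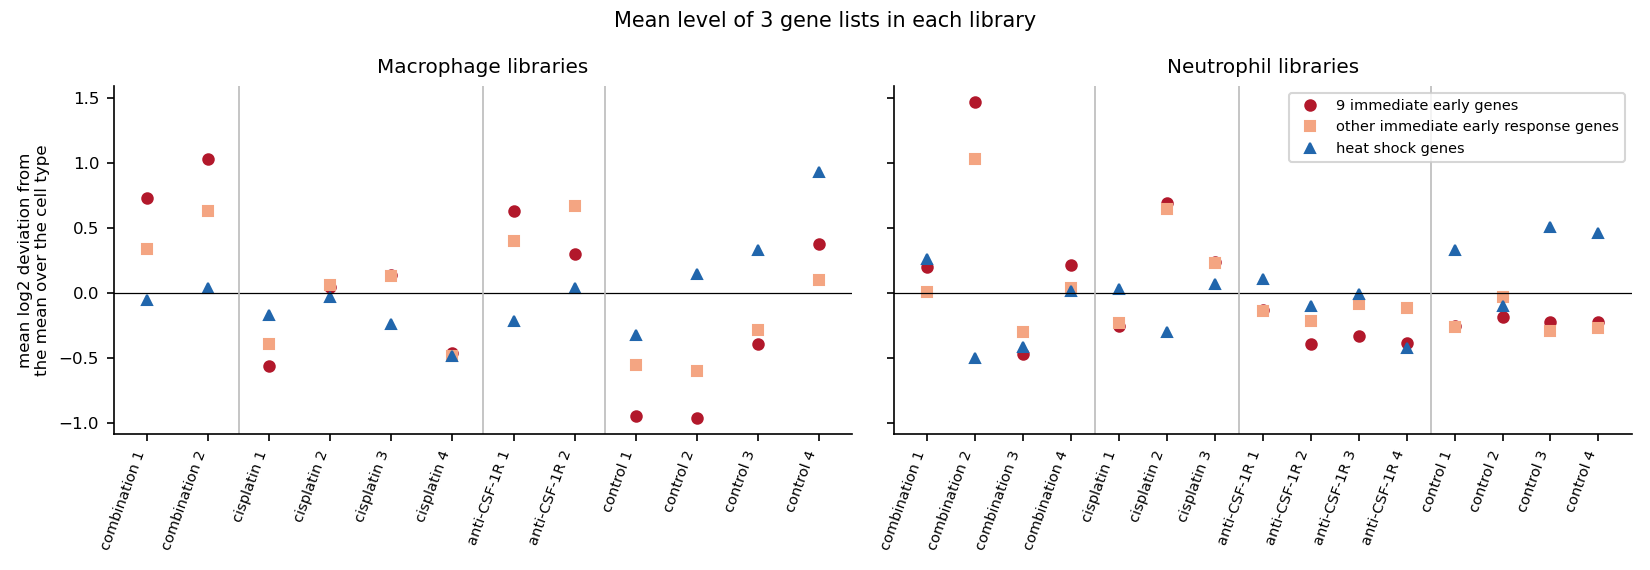
Mean log2 deviation from the cell type's mean of the 9 immediate early genes, other immediate early response genes and heat shock genes, in each library. Macrophage control replicate 4 had the highest heat shock level, 0.93, and neutrophil combination replicate 2 the highest immediate early level, 1.47, with heat shock genes at -0.50.

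The genes whose pattern over the libraries was most like the mean of the 9 were named from those with a placed value in every library and a mean log2 value of 5 or more. In macrophages, among 4630 genes, these were Npc2 (Pearson r = 0.978 over 12 libraries), B2m (0.974), Ctss (0.971), Trafd1 (0.964) and Lrpap1 (0.962). Ctss, which encodes the protease cathepsin S, averaged 16431 in combination, 7134 in cisplatin and 13725 in anti-CSF-1R macrophages, against 6848 in control macrophages. B2m, the light chain of MHC class I, averaged 16240.0 in combination, 7922 in cisplatin and 12584 in anti-CSF-1R macrophages, against 7358 in control macrophages. In neutrophils, among 4170 genes, they were Tmem33 (r = 0.928 over 15 libraries), Btg2 (0.92), Tsc22d4 (0.916), Prickle3 (0.906) and Pira2 (0.897). Btg2, itself an immediate early gene that restrains growth, averaged 2635 in combination, 2608 in cisplatin and 1432 in anti-CSF-1R neutrophils, against 1424 in control neutrophils.

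Other genes of the pathway were followed in lists. Of 31 other immediate early response genes tested in combination against control macrophages, 4 rose and 0 fell. Of all 9107 genes tested there, 160 (1.76%) were called higher and 201 lower. The median of the list was 0.78, beside -0.01 over all genes. The 4 were Ier5, Btg1, Trib1 and Egr2. Ier5, a gene induced by growth signals and stress, measured 2547 and 2184 in combination macrophages, against 299, 237, 376 and 914 in control macrophages, with control replicate 4 again highest, and rose by 2.58 ± 0.38 (adjusted p = 0.0026). Btg1, an antiproliferative gene, rose by 1.63 (adjusted p = 0.00719), Trib1 by 1.36 (adjusted p = 0.0224) and Egr2, a relative of Egr1, by 2.35 (adjusted p = 0.0247). None of 15 other AP-1, CREB/ATF and MAF factors (median 0.06), 25 MAP kinase and upstream genes (0.09), 7 other dual-specificity phosphatases (0.40) or 10 messenger RNAs destabilised by tristetraprolin (1.23) was called by limma in this comparison; the smallest p in each list belonged to Mafk (0.00545), Hras (0.0114), Dusp10 (0.0135) and Ier3 (0.00641). Of 13 heat shock genes 1 was called, Hspd1, a mitochondrial chaperone, which fell by 1.21 (adjusted p = 0.00487).

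In combination against cisplatin macrophages 4 of 31 other immediate early genes rose: Ier5 by 2.64 (adjusted p = 0.00233), Btg1 by 1.66 (adjusted p = 0.00715), Egr2 by 2.23 (adjusted p = 0.0241) and Klf6 by 1.13 (adjusted p = 0.0252). Of all 9107 genes tested there, 192 (2.11%) were called higher and 241 lower. The list's median was 0.58, beside -0.01 over all genes. Of 10 tristetraprolin targets 1 rose, the chemokine gene Ccl3, at 452 and 797 in combination macrophages, against 114, 163, 177 and 79.9 in cisplatin macrophages, by 2.23 (adjusted p = 0.00793). Rps6ka1, which encodes a kinase activated by ERK, fell by 1.17 (adjusted p = 0.0281) as the 1 called gene of 25 in the MAP kinase list.

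In anti-CSF-1R against control macrophages, where no member was called, 6 of 32 other immediate early genes rose (Btg1, Ier3, Egr2, Ier5, Nfkbiz and Socs3). Of all 9115 genes tested there, 187 were called higher and 239 lower. The median of the list was 0.85, beside 0.03 over all genes. Btg1 rose by 1.87 (adjusted p = 0.00394), Egr2 by 2.28 (adjusted p = 0.0278) and Ier5 by 1.65 (adjusted p = 0.0278). Of 10 tristetraprolin targets 3 rose, with a list median of 1.88: Ier3, which belongs to both lists, by 1.85 (adjusted p = 0.0197), Cxcl1 by 3.69 (adjusted p = 0.0425) and Il10 by 4.27 (adjusted p = 0.00163). Cxcl1 had 1 control library and Il10 1 anti-CSF-1R library with a placed value, so these calls assume that the lone library varied like the others. Dusp10 rose by 2.34 (adjusted p = 0.0447), and Mapk9, which encodes a JNK kinase, and Hspd1 fell by 1.44 (adjusted p = 0.0367) and 0.96 (adjusted p = 0.0179).

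Between the cell types in control tumours, where 24.9% of all genes were called lower and 26.8% higher in macrophages, the other lists differed. Of 32 other immediate early genes 24 were lower and 1 higher (median -1.91, beside 0.13 over all genes), with Nfkbiz by -4.34, Gadd45b by -3.25 and Ppp1r15a by -2.76 at the smallest p. Of 15 other AP-1 and related factors 10 were lower and 0 higher (median -0.92), among them Jdp2 by -2.08, Maff by -2.03 and Fosl1, which was listed at 1 to 4.13 in control macrophages, against 38.0 to 170 in control neutrophils. Of 12 tristetraprolin targets 9 were lower and 1 higher (median -3.58), with Cxcl2 by -4.35, Tnf by -4.28 and Il23a, which was listed at 1 to 1.38 in control macrophages, against 90.2 to 281 in 3 control neutrophil libraries. Of 7 other dual-specificity phosphatases 5 were lower (median -1.57), Dusp16 by -3.36. Of 25 genes in the MAP kinase list 7 were lower and 3 higher (median -0.18), a share of lower genes close to that of all genes. Of 13 heat shock genes 6 were higher and 1 lower in macrophages (median 0.90), with Hspe1 by 2.20. Adjusted p for these named genes was 3.19e-06 or smaller, except 2.49e-05 for Maff.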

How the data were processed

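RNA was measured in 27 libraries made from 10 ng of total RNA per the labels' protocols, with a HiSeq 1500 as the sequencer. Build mm10, TopHat2 2.0.11, CASAVA 1.8, DESeq2, Partek 6.6 and R 3.3.1 appear in the submitters' processing notes, without a role or order. In unit the deposited table is a signal, reads scaled by the authors with 1 step per library, as its values show, and its lowest listed value is 1. Of 269892 values, 245483 (90.96%) had a form that may have lost a decimal point. Whole reads (within 0.02) were required to recover the place, and a negative binomial model over the groups chose where 181187 values (67.13%) still had several; 12946 (4.8%) with a probability under 0.95 were left out, and 0.119% of those kept were expected to be wrong. Of the 243 member values 34 had several places, 242 were kept and 243 had the same place without the groups. The tests had been chosen for undamaged linear values and were run on the recovered ones.

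A gene entered a fit with a value of 10 or more in 2 or more of its libraries. The tests, two-sided, were those of limma 3.58.1 (R 4.3.3; lmFit, then eBayes with trend) for log2(value + 1), with Benjamini-Hochberg adjustment over all genes tested and a threshold of 0.05. The 4 groups of a cell type shared 1 fit, and all 8 groups 1 fit for the comparisons involving both cell types, 19 comparisons in all. Fold changes are on that scale and understate those of low genes. In data simulated for combination against control, the test called, in neutrophils, 22% of changes of 2-fold and 82.8% of those of 4-fold, with 21 false calls among 8732 unchanged genes, and in macrophages 13.5% and 77.7%, with 20 among 8759. The simulated spread was drawn gene by gene from fixed settings, with no shift of a whole library. Several members varied widely. The SD of Egr1, for example, was 72.8% of its mean in control macrophages and 97.5% in combination neutrophils. The simulated rates may therefore not hold for the members. Replicate numbers follow the order of the samples. The 9 members and the gene lists were chosen with earlier results of these data known. All members were named, with the 3 genes of smallest p from each list where members were called and the 5 genes most alike; other list genes that were called were named after their values were seen. Marker sums and list levels use the recovered values. Alternatives covered the pseudocount, filter, scaling, fit, weights, decoding, limma-voom and left-out libraries. Decoding and figures used Python 3.11.15 with matplotlib 3.10.9, pandas 2.3.3, scipy 1.17.1 and numpy 2.4.6.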

Additional observations from a re-analysis of the deposited data

Results flagged for a closer look

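Gaps were examined in 44 groups of 4 libraries, 1 gene in 1 group each. The gap of the highest or lowest library to its neighbour was set against the group's range, both in normalised values without logs. Wide gaps were found in 6 groups, all at the highest library. For normally distributed values chance gives a gap this wide in about 1 in 20 independent groups. Skewed values, as read counts can be, need not follow that rate. Here the groups share libraries and their genes vary together, so the count of 6 cannot be set against that rate. Neutrophil combination replicate 2 lay far above the other 3 libraries for Junb (1613, the others at most 815), Egr1 (12472, at most 3151) and Ier2 (258, at most 93.5). Macrophage control replicate 4 did so for Atf3 (655, at most 231). In control neutrophils replicate 1 lay above the others for Fos (661, at most 449) and replicate 2 for Dusp1 (3460.4, at most 2729).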

How the results depend on the processing

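No paired analysis was possible because the labels number no replicates. Over 60 fold changes with an unadjusted p under 0.05 and 1005 alternative values, 0 changed sign and 914 stayed on the same side of the threshold; the cause of the moves below was not tested, beyond the smaller groups where a library was left out. The count of called members in combination against control macrophages (3) was 4 with a pseudocount of 8 or upper quartiles equal (Fos gained), 2 with no filter or with points recovered without the groups (Dusp1 lost), 7 with array weights and 0 to 7 with 1 library left out. In combination against cisplatin macrophages the count (2) was 1 with no filter, with quantile normalisation, with points recovered without the groups, with the most probable place for every value and with limma-voom, 4 with the compared groups alone, 6 with array weights, and 0 to 2 with 1 library left out. In anti-CSF-1R against control macrophages the count (0) was 0 to 5 with 1 library left out. For macrophages against neutrophils, the control count (7 lower) was 6 with quantile normalisation (1 higher, 5 lower) and 6 to 7 with 1 library left out. The anti-CSF-1R count (1 higher, 3 lower) was 4 with upper quartiles equal (2 and 2), 3 with quantile normalisation (2 and 1), 7 with the compared groups alone (2 and 5) and 1 to 4 with 1 library left out. The cisplatin count (7 lower) was 8 with upper quartiles equal (1 higher, 7 lower), 6 with quantile normalisation (1 and 5) and 7 to 8 with 1 library left out. The combination count (3 lower) was 2 with quantile normalisation (2 higher, 0 lower) and 1 to 4 with 1 library left out. Other settings also moved these calls (adjusted p). In anti-CSF-1R tumours array weights gained Fos (0.0484) and Zfp36 (0.0366). Dusp1 was lost there with points recovered without the groups (0.0518) or the most probable places (0.0526). In cisplatin tumours Fos was gained with the compared groups alone (0.0256) or array weights (0.0182). In combination tumours a pseudocount of 8 (0.0498) or array weights (0.0435) gained Egr1. The compared groups alone lost Zfp36 there (0.0519). For the combination's difference between the cell types the count (0) was 1 with quantile normalisation (Jun, 1.93, adjusted p = 0.0285). Where a group was left with 1 library, that library was assumed to vary like the other groups. With 2 libraries in the macrophage combination group, 13.5% of the simulated 2-fold changes from control were called. The macrophage anti-CSF-1R group also had 2 libraries, but its comparisons were not simulated. In both groups 2-fold changes may be missed, and the simulated rate may not hold for the members.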

Other observations

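Messenger RNAs destabilised by tristetraprolin, the product of Zfp36, were followed in neutrophils as well. Of 12 tested, 12 had a log2 difference above 0 in combination against control neutrophils (52.4% of all genes; median 0.79, beside 0.03 over all genes). In cisplatin against control neutrophils 12 did so (52.9% of all genes; 0.71, beside 0.03), and in anti-CSF-1R against control neutrophils 12 (50.9%; 0.85, beside 0.01). The comparisons share the control libraries, so the counts are not independent of each other. The 12 genes were read in the same libraries, so they are not 12 separate observations, and their count was not tested. Limma called 1 of them, Il10, in anti-CSF-1R neutrophils, at 102, 142 and 347 in the 3 libraries with a placed value, against 19.4, 34.1 and 53.2 in 3 control libraries, a log2 difference of 2.35 ± 0.43 (adjusted p = 0.0473). In that comparison 0.121% of all 9125 genes were called in either direction. The list was drawn up with earlier results of these data known.

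The Egr1 value of cisplatin macrophage replicate 1 that was left out has a pair of readings, 724 (980 reads) and 72.4 (98 reads), the more probable at 0.549.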
